A study of Mus musculus with 4 samples.

Results

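Sphingosine 1-phosphate and lysophosphatidate signalling is described here by 10 genes, S1pr1, S1pr2, S1pr3, Sphk1, Sphk2, Spns2, Sgpl1, Lpar1, Lpar4 and Lpar6, in cardiac endothelial cells of adult mice. The genes were taken from a list of symbols, and every non-control probe whose accession belongs to 1 of them was kept, which gave 15 probes of the 41174 on the array and 10 genes of the 18353 with a symbol. Of the 10 genes, 5 have 2 probes and 5 have 1. The labels give 2 arrays of a control group, whose genetic label is wild type, and 2 arrays of a group called G2-EC-KO, whose genetic label is a Gata2 knock out. Both groups are adult cardiac endothelial cells, and no agent is named for either. Age, strain, the number of animals behind a sample and the promoter that drives the deletion are not given in the sources used here. Nothing says that replicates came from separate animals, so the p-values refer to the spread among these 4 samples alone, and that spread may be technical.

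Sphingosine 1-phosphate (S1P) and lysophosphatidate (LPA) are small phospholipids that act outside the cell on G protein-coupled receptors. Sphingosine kinases make S1P, the transporter Spns2 carries it out of endothelial cells, and the lyase Sgpl1 cleaves it for good. Endothelial cells are a main source of S1P in lymph and carry its receptors, of which S1pr1 is known for holding the vessel wall tight. The S1P receptors and Lpar1 belong to one receptor family, once named EDG, while Lpar4 and Lpar6 belong to the purinergic (P2Y) family.

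All 15 probes were well above background on all 4 arrays, as were 25488 of all 41174 probes. The 12 marker genes of endothelium were all well above background on every array. So were all 10 cardiomyocyte, all 10 fibroblast and all 10 pericyte and smooth muscle markers. Of those tested, all 9 macrophage and monocyte, all 7 platelet and erythroid and 7 of 8 lymphocyte markers were too. Signal above background therefore cannot check the endothelial label. Each level is the log2 of a signal divided by its array's 75th percentile, which lay between 1181 and 1438 in processed signal units. With 2 arrays a group, an exact two-sided permutation test cannot give a p below 0.333, so the p-values are those of limma, a linear model fitted to all 26893 probes that were well above background on at least 2 arrays, with Benjamini-Hochberg adjustment over all of them. Control arrays lay first and second on the slide and G2-EC-KO arrays after them, so position and group cannot be told apart. The 2 probes of Gata2 gave log2 changes of 0.29 (SE 0.18) and 0.17 (SE 0.14), G2-EC-KO minus control, with adjusted p = 0.586 and 0.653 by limma. Whether they lie in the deleted part is not given in the sources used here, so they check nothing, and every direction rests on the labels.

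GATA2 is a transcription factor that binds GATA motifs, so the promoters of the genes were read for that motif. Promoter windows from RefSeq, of build GRCm38.p6 and 300 bases long with 250 before the transcription start and 50 after it, were held for 9 of the 10 genes, the exception being S1pr1, with 16 windows in all. They were searched on both strands for the motif AGATAA and its variant AGATAG, and likewise for the motif TGATAA and its variant TGATAG. At least 1 window held a match in 3 genes, Sphk1, Spns2 and Lpar6, and 4 of the 16 windows matched, or 25.0%, against 29.8% of all 32851 windows in the table. The match begins 124 bases before the start in the Sphk1 window shown, 119 bases before it in Spns2 and 6 bases before it in Lpar6, each on the opposite strand. The other matching Sphk1 window overlaps the one shown and holds the same match. The windows of those 3 genes are shown with the match in capitals, beside those of Sgpl1 and Lpar4, the genes with the lowest and the highest change, which hold none. They are Sphk1 at chr11:116532194-116532493 (+), Spns2 at chr11:72474978-72475277 (-), Lpar6 at chr14:73237641-73237940 (+), Sgpl1 at chr10:61147635-61147934 (-) and Lpar4 at chrX:106920375-106920674 (+), all 5′ to 3′ in the direction of the gene.
Sphk1: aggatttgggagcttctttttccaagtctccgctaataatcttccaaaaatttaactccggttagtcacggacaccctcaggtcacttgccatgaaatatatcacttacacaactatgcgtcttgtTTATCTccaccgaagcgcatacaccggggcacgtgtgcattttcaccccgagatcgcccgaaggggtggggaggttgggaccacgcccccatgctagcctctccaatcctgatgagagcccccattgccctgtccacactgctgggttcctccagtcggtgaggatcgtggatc
Spns2: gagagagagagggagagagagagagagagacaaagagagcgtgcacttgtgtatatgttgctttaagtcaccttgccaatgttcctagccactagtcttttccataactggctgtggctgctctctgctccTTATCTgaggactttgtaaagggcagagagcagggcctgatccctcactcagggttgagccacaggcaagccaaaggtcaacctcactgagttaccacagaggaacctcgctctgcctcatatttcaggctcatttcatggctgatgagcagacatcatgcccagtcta
Lpar6: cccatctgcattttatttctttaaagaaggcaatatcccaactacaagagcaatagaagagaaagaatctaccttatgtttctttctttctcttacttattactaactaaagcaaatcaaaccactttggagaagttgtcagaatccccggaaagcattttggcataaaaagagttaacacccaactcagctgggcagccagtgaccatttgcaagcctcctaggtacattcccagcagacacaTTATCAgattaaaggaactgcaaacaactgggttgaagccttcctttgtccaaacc
Sgpl1: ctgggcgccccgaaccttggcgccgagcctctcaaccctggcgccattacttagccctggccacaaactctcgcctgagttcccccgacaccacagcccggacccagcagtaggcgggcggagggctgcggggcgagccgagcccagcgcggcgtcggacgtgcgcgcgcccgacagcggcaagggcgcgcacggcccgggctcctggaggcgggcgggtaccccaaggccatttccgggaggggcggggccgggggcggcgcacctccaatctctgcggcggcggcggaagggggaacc
Lpar4: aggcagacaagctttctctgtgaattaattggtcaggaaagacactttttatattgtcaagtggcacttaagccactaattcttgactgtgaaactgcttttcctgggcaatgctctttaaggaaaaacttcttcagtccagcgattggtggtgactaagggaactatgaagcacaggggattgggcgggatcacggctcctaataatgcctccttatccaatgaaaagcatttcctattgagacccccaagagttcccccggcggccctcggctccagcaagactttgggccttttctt
The Sgpl1 window is 75.3% G and C and holds 38 CpG dinucleotides, and the Lpar4 window is 46.7% G and C and holds 6. The medians over all windows are 52.7% and 7. A match is a run of letters, and no binding was measured in these samples.

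In the comparison of G2-EC-KO with control cells, no probe of the 10 genes passed an adjusted p of 0.05 in limma (0 of 15), where 1 of all 26893 probes did (0.00372%). At an unadjusted p under 0.05 there was 1 of 15, a probe of the LPA receptor gene Lpar4, where 9.63% of all probes tested were, 4.9% higher and 4.73% lower. Control and G2-EC-KO arrays were fully separated at 5 of 15 probes, against 46.4% of all probes. Of these, 2 were higher in G2-EC-KO, where 23.8% of all probes were, and 3 lower, where 22.6% were. The log2 change was below 0 at 11 of 15 probes, against 50.4% of all probes. At the brightest probe of each gene, 7 genes had a change below 0 and 3 above, against 41.9% of all genes tested below 0. The median was -0.059 in log2 units, against 0.041 over all 13628 genes tested. Without control replicate 1 or G2-EC-KO replicate 1 it was -0.094, without control replicate 2 it was -0.038 and without G2-EC-KO replicate 2 it was -0.019. Single genes ranged from -0.41 for Sgpl1 to 0.55 for Lpar4. Where a gene has 2 probes, both changes had the same sign. The values by array showed another feature, in that most of the low values came from G2-EC-KO replicate 2. That array was the lowest of the 4 at 8 of 15 probes, against 32.1% of all probes, a count made after the values were seen. Both probes of Sgpl1, of S1pr3 and of Sphk1 are among the 8, so fewer than 8 genes are behind that count.

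**Figure D1:**
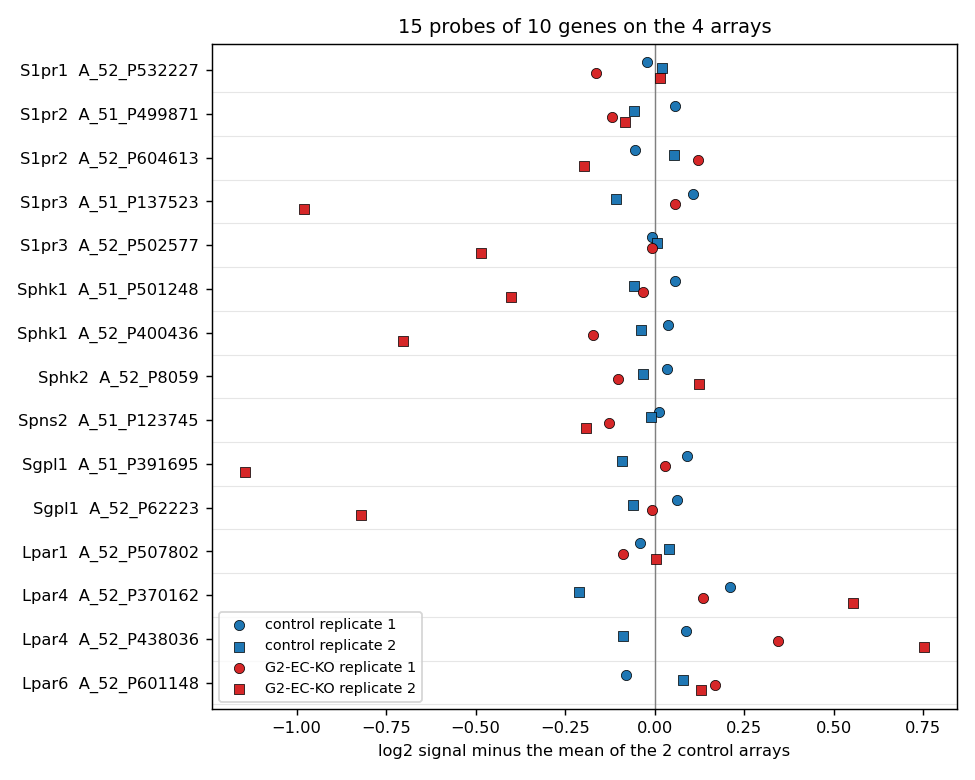
Log2 signal of each of the 15 probes on each array, minus the mean of the 2 control arrays (x axis, log2 units), with 1 row per probe, circles for replicate 1 and squares for replicate 2, blue for control and red for G2-EC-KO. The red squares of both Sgpl1 and both S1pr3 probes lie far to the left of the other 3 arrays, down to -1.14. The red square of Sphk1 probe A_52_P400436 lies at -0.70. Both G2-EC-KO arrays of Lpar4 probe A_52_P438036 lie to the right, at 0.35 and 0.75.

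**Figure D2:**
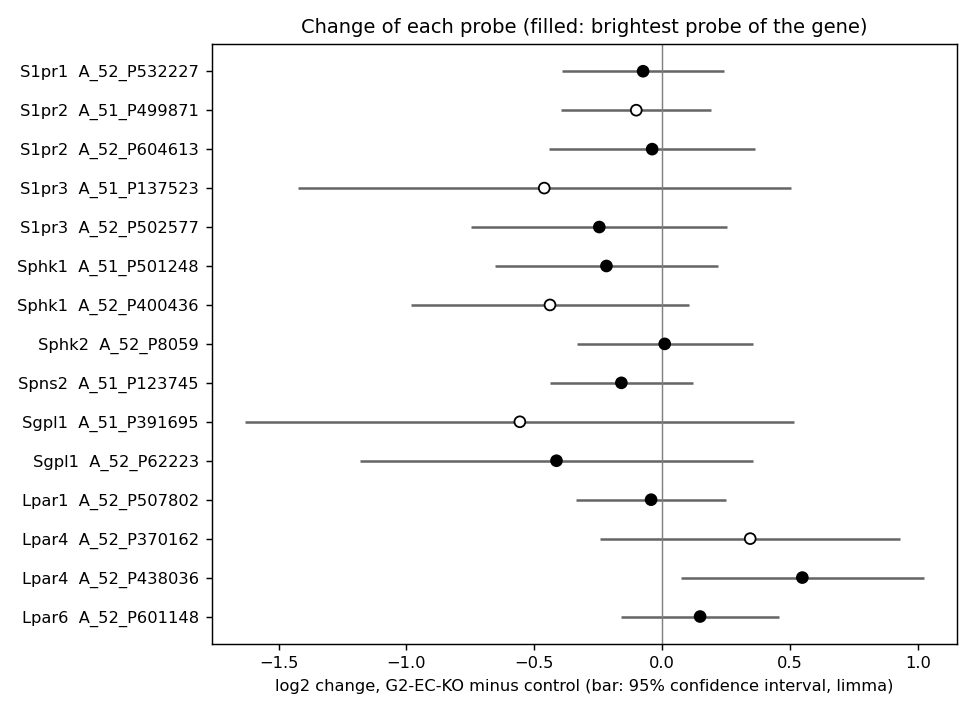
Log2 change of each probe, G2-EC-KO minus control (x axis), with its 95% confidence interval from limma as a bar and the brightest probe of each gene filled. The interval of Lpar4 probe A_52_P438036, 0.075 to 1.02, lies above 0 and all other intervals span 0. The widest intervals are those of both Sgpl1 probes and of S1pr3 probe A_51_P137523.

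The breakdown enzyme gene Sgpl1 had the lowest change of the 10 genes when each is taken at its brightest probe. Its brighter probe, A_52_P62223, read 2.08 and 1.96 on the control arrays, 2.01 on G2-EC-KO replicate 1 and 1.20 on G2-EC-KO replicate 2. G2-EC-KO replicate 2 therefore stood below the other arrays, which lay close together, so the groups overlapped. The log2 change was -0.41 (SE 0.29; -1.18 to 0.36 at 95% confidence; limma, adjusted p = 0.623). The dimmer probe, A_51_P391695, showed the same order, with -1.66 and -1.84 in control, -1.72 on G2-EC-KO replicate 1 and -2.89 on replicate 2. Its log2 change was -0.56 (SE 0.41; limma, adjusted p = 0.630). Without G2-EC-KO replicate 2 the changes were -0.0062 and 0.031, and without replicate 1 they were -0.82 and -1.14. In bulk samples, fewer cells of a type and less RNA per cell cannot be told apart.

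S1pr3, the S1P receptor that is also prominent in smooth muscle and pericytes, had the same pattern. Probe A_52_P502577 read 3.50 and 3.51 in control, 3.50 on G2-EC-KO replicate 1 and 3.02 on replicate 2. The log2 change was -0.25 (SE 0.19; limma, adjusted p = 0.643), or -0.0058 without G2-EC-KO replicate 2 and -0.49 without replicate 1. The dimmer probe, A_51_P137523, read -1.05 and -1.27 in control and -1.10 and -2.14 in G2-EC-KO, a difference of -0.46 in log2 (SE 0.36; limma, adjusted p = 0.649). The change was 0.056 without G2-EC-KO replicate 2 and -0.98 without replicate 1. At the probes of S1pr3 and Sgpl1, G2-EC-KO replicate 1 thus deviated from the control mean by -0.0062 to 0.056.

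Sphk1, the kinase gene whose product makes S1P in the cytoplasm, read lower on both G2-EC-KO arrays at 1 probe only. Probe A_52_P400436 read 2.24 and 2.16 in control, 2.02 on G2-EC-KO replicate 1 and 1.49 on replicate 2, without overlap. Its log2 change was -0.44 (SE 0.21; limma, adjusted p = 0.548), with -0.17 without G2-EC-KO replicate 2 and -0.70 without replicate 1. The brighter probe, A_51_P501248, read 4.88 and 4.77 in control and 4.79 and 4.42 in G2-EC-KO. There the groups overlapped, and the log2 change was -0.22 (SE 0.16; limma, adjusted p = 0.639), with -0.033 without G2-EC-KO replicate 2 and -0.40 without replicate 1.

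G2-EC-KO replicate 2 read more than 0.5 log2 units below replicate 1 at 4 of 15 probes, both of Sgpl1 and 1 each of S1pr3 and Sphk1, where 6.95% of all probes did, and above it at 0 of 15, where 5.79% did. The limit was set after the values were seen. The difference was -1.17 and -0.81 at the Sgpl1 probes, and 0.848% and 2.32% of all tested probes had one as low or lower. At the S1pr3 probes it was -1.03 and -0.48, as low or lower at 1.18% and 7.55% of probes. At the Sphk1 probes it was -0.53 and -0.37, as low or lower at 6.17% and 11.6%. Other markers also differed between the 2 G2-EC-KO arrays. The summed signal of 10 pericyte and smooth muscle markers, in multiples of the 75th percentile, was 348 and 313 in control, 358 on G2-EC-KO replicate 1 and 257 on replicate 2, and that of 10 cardiomyocyte markers was 100.1, 102, 104.6 and 144 in the same order. Their part in the values of Sgpl1, S1pr3 and Sphk1 was not tested. Without G2-EC-KO replicate 1, 7 of the 15 probes reached an unadjusted p under 0.05 and 0 an adjusted one in limma, and 20.8% of all probes reached the former. With all arrays 1 of the 15 did, and without any other single array 0 did.

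**Figure D3:**
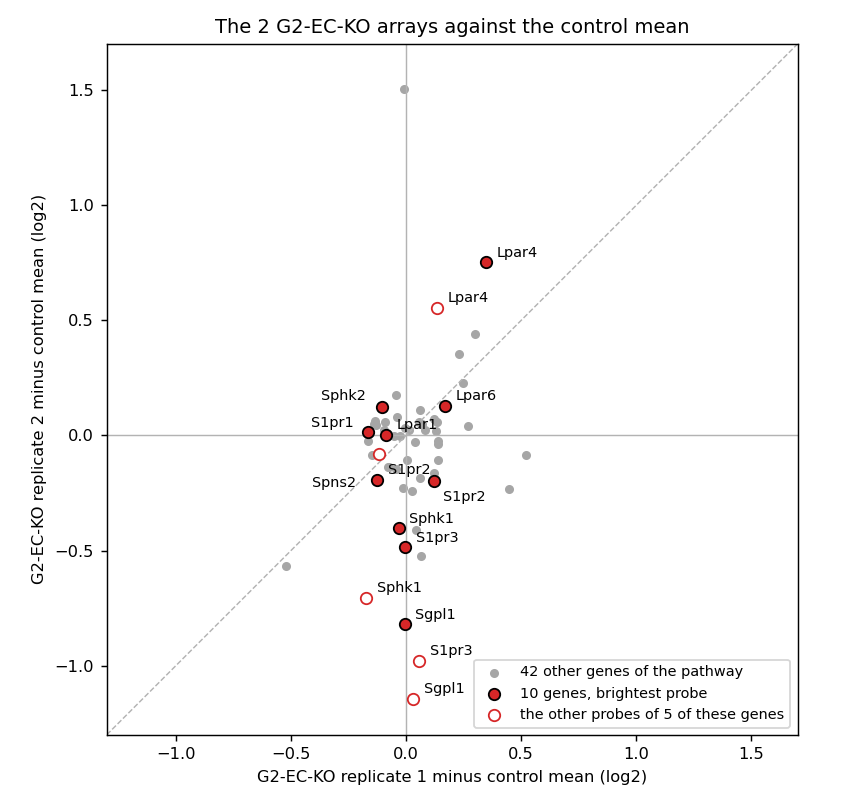
Deviation of G2-EC-KO replicate 1 (x axis) and replicate 2 (y axis) from the control mean, in log2 units, for the 10 genes (filled red, brightest probe), the other probes of 5 of them (open) and 42 other genes of the pathway (grey). The dashed line marks equal values on both arrays. At their brightest probes Sgpl1, S1pr3 and Sphk1 lie below the line and close to 0 on the x axis, and Lpar4 lies to the upper right at 0.35 and 0.75. The other Sphk1 probe lies at -0.17 and -0.70.

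Sgpl1 had the widest range over the 4 arrays among the brightest probes, so the genes with the nearest centred profile were sought among 13620 others. Among the nearest were Tifa and Trpc4, at a root mean square difference of 0.035 and 0.042 log2 units over the 4 arrays. The Trpc4 probe is dim, at -4.18 and -4.37 in control and -4.30 and -5.02 in G2-EC-KO. Tifa read 2.49 and 2.40 in control and 2.51 and 1.62 in G2-EC-KO. Tifa was chosen for its nearness to Sgpl1, so its low value on G2-EC-KO replicate 2 alone follows from that choice. In all, 123 genes lay within 0.1 log2 units of the Sgpl1 profile. No such count was made for other profiles, so 123 cannot be called many or few.

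The transporter gene Spns2 had a small difference that both G2-EC-KO arrays showed. It read 2.55 and 2.53 in control and 2.41 and 2.35 in G2-EC-KO, without overlap. The log2 change was -0.16 (SE 0.11; -0.44 to 0.12 at 95% confidence; limma, adjusted p = 0.610), and fits that dropped any single array gave -0.19 to -0.13. As many as 48.6% of all tested probes had a larger absolute change.

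The receptor gene S1pr1, which couples to the inhibitory G protein and strengthens the endothelial barrier, differed between the groups by less than the spread of the G2-EC-KO arrays. It read 4.37 and 4.41 in control and 4.23 and 4.41 in G2-EC-KO, and the log2 change was -0.074 (SE 0.12; -0.39 to 0.24 at 95% confidence; limma, adjusted p = 0.818). S1pr2, another S1P receptor, read -1.74 and -1.64 in control and -1.57 and -1.89 in G2-EC-KO at probe A_52_P604613, a difference of -0.039 in log2 (SE 0.15; limma, adjusted p = 0.930). Its dimmer probe, A_51_P499871, read -2.45 and -2.56 in control and -2.62 and -2.59 in G2-EC-KO, without overlap, and gave -0.10 (SE 0.11; limma, adjusted p = 0.734). Sphk2, the sphingosine kinase that also works in the nucleus, read 0.91 and 0.85 in control and 0.78 and 1.0 in G2-EC-KO. Its log2 change was 0.010 (SE 0.13; -0.33 to 0.35 at 95% confidence; limma, adjusted p = 0.979), with no settled sign, since normexp, quantile normalization and the deposited values gave -0.032, -0.0094 and -0.030. The intervals for these receptors and for Sphk2 span differences in both directions, so equal levels are not shown.

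The LPA receptor gene Lpar4, whose product is known from studies of vessel formation, had the highest change of the 10 genes. Probe A_52_P438036 read -0.0081 and -0.18 in control, 0.25 on G2-EC-KO replicate 1 and 0.66 on replicate 2. Both G2-EC-KO arrays lay above both control arrays. The log2 change was 0.55 (SE 0.18; 0.075 to 1.02 at 95% confidence; limma, unadjusted p = 0.0316, adjusted p = 0.492), which is 1.46-fold and did not pass the threshold. A larger absolute change was seen at 6.58% of all tested probes. Without G2-EC-KO replicate 2 it was 0.35 and without replicate 1 it was 0.75. The unadjusted p in limma was 0.0605, 0.136 and 0.0789 without control replicate 1, control replicate 2 and G2-EC-KO replicate 2. The dimmer probe, A_52_P370162, read -4.02 and -4.44 in control and -4.10 and -3.68 in G2-EC-KO, with overlap, and its log2 change was 0.34 (SE 0.22; limma, adjusted p = 0.604). Without G2-EC-KO replicate 2 that was 0.13, and without replicate 1 it was 0.56.

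The other P2Y-type LPA receptor gene, Lpar6, read 2.84 and 3.01 in control and 3.09 and 3.05 in G2-EC-KO, without overlap. Its log2 change was 0.15 (SE 0.12; -0.16 to 0.46 at 95% confidence; limma, adjusted p = 0.648), and fits that dropped any single array gave 0.068 to 0.23. Lpar1, the EDG-type LPA receptor gene that fibroblasts also express, read -1.01 and -0.93 in control and -1.06 and -0.97 in G2-EC-KO. Its log2 change was -0.043 (SE 0.11; -0.34 to 0.25 at 95% confidence; limma, adjusted p = 0.891). The summed signal of 10 fibroblast markers was 160 and 191 in control and 189 and 205 in G2-EC-KO, and its part in the Lpar1 values was not tested.

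Beyond the 10 genes, the receptors of both lipids were looked up in full. Of 11 receptor genes, 5 for S1P and 6 for LPA, 8 were well above background on all 4 arrays and 3, S1pr5, Lpar2 and Lpar3, on 0 arrays. Each of those 3 has 1 probe, so a failed probe cannot be told from an absent transcript. Of the 8, S1pr4 and Lpar5 are dim, at 69 to 142 and 55 to 96 processed signal units. S1pr4, an S1P receptor known from leukocytes, read -3.73 and -3.34 in control and -4.06 and -4.10 in G2-EC-KO, without overlap. Its log2 change was -0.54 (SE 0.17; limma, unadjusted p = 0.0262, adjusted p = 0.472). With normexp background correction it was -0.21 (limma, unadjusted p = 0.121), and it was -0.34 without control replicate 2 and -0.74 without control replicate 1. Lpar5 gave 0.11 (SE 0.25; limma, adjusted p = 0.876) and changed sign when G2-EC-KO replicate 1 was left out, at -0.23. The summed signal of 8 lymphocyte markers tested was 0.684 and 0.413 in control and 0.554 and 0.446 in G2-EC-KO. That of 9 macrophage and monocyte markers was 6.09 and 8.82 in control and 9.31 and 8.78 in G2-EC-KO. The part of either sum in the S1pr4 values was not tested.

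Of 53 further genes of the pathway in 6 lists, 42 were tested, 7 were not well above background on enough arrays and 4 had no matched probe. Of those tested, 0 passed the adjusted threshold in limma in either direction, while 2, S1pr4 and Abca1, had an unadjusted p under 0.05, where 9.63% of all probes did. Of these 42 genes 22 had a change above 0 and 20 below, against 41.9% of all genes tested below 0, with a median of 0.010 in log2 units. Among 14 genes that supply or break down sphingosine and S1P, 7 were above and 7 below 0, with a median of -0.0044 that turned to 0.015 with median centring and to 0.0041, 0.0095 and 0.033 without control replicate 1, G2-EC-KO replicate 1 and G2-EC-KO replicate 2. Asah1, the acid ceramidase that frees sphingosine, had the smallest p of them and read 0.24 log2 units higher (SE 0.11; limma, adjusted p = 0.543), or 0.14 with normexp and 0.15 with the deposited table. The genes named for their probe signal, Acer2 and Degs1, gave -0.016 (SE 0.12) and 0.094 (SE 0.11). The 5 carrier and transport genes were all above 0 with all arrays in the fit, with a median of 0.22, among them the sterol and phospholipid exporter gene Abca1, at 0.37 (SE 0.12; limma, adjusted p = 0.491), and Abcg2, at 0.056 (SE 0.12). The unadjusted p of Abca1 in limma was above 0.05 without a filter, with the replicate block and without any single array other than G2-EC-KO replicate 1. That median was 0.43 without control replicate 1 and 0.049 without control replicate 2, 0.057 and 0.081 without G2-EC-KO replicates 1 and 2, and 0.14 with genes well above background on all 4 arrays, which leaves out Apom, the S1P carrier gene that reached that on 2.

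Among 6 genes of LPA supply and breakdown, 4 were above and 2 below 0, with a median of 0.090 that turned to -0.019 without control replicate 1 and was 0.055 without G2-EC-KO replicate 1. Enpp2 encodes autotaxin, the enzyme that makes LPA outside the cell, and read 0.29 log2 units higher (SE 0.17; limma, adjusted p = 0.583), or 0.094 without control replicate 1. Plpp3 and Plpp1, phosphatases that remove the phosphate of both lipids at the cell surface, gave -0.096 (SE 0.11) and -0.11 (SE 0.14). The 15 effector genes downstream of the receptors had a median of -0.036, with 5 above and 10 below 0 and all between -0.18 and 0.065. That median was -0.082 without control replicate 1, 0.015 without control replicate 2, and -0.023 and -0.015 without G2-EC-KO replicates 1 and 2. Rac1 and Gnai3, named for their probe signal, gave -0.026 (SE 0.11) and -0.061 (SE 0.14), and Grk2, a kinase that desensitises receptors, gave -0.12 (SE 0.11).

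**Figure D4:**
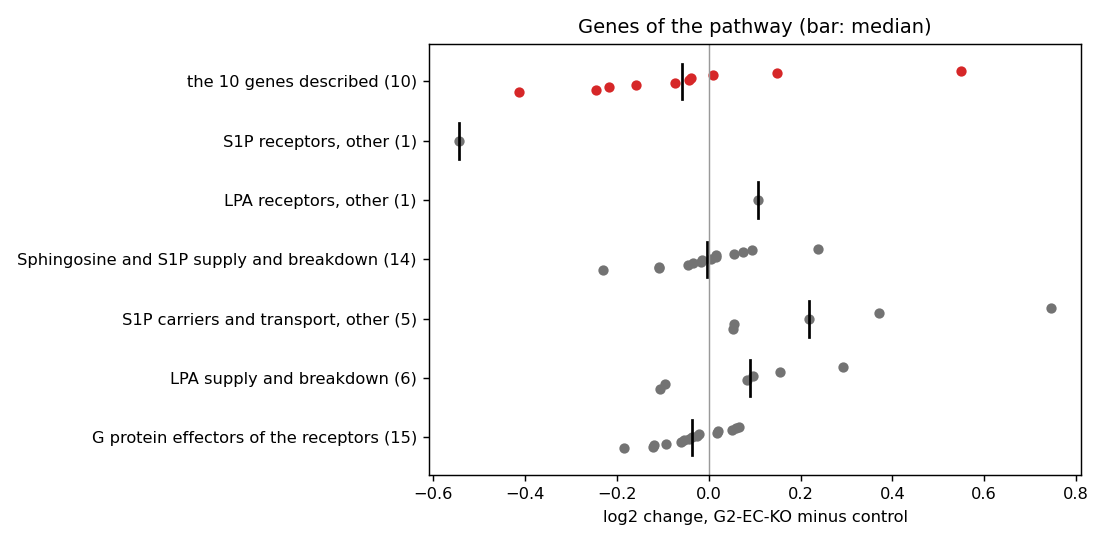
Log2 change, G2-EC-KO minus control (x axis), at the brightest probe of each gene, for the 10 genes described (red) and for 42 genes in 6 lists of the pathway (grey), with the number of genes tested in brackets and the median as a black bar. The medians of the 10 genes, of 14 sphingosine supply and breakdown genes and of 15 effector genes lie near 0, at -0.059, -0.0044 and -0.036.

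**Figure D5:**
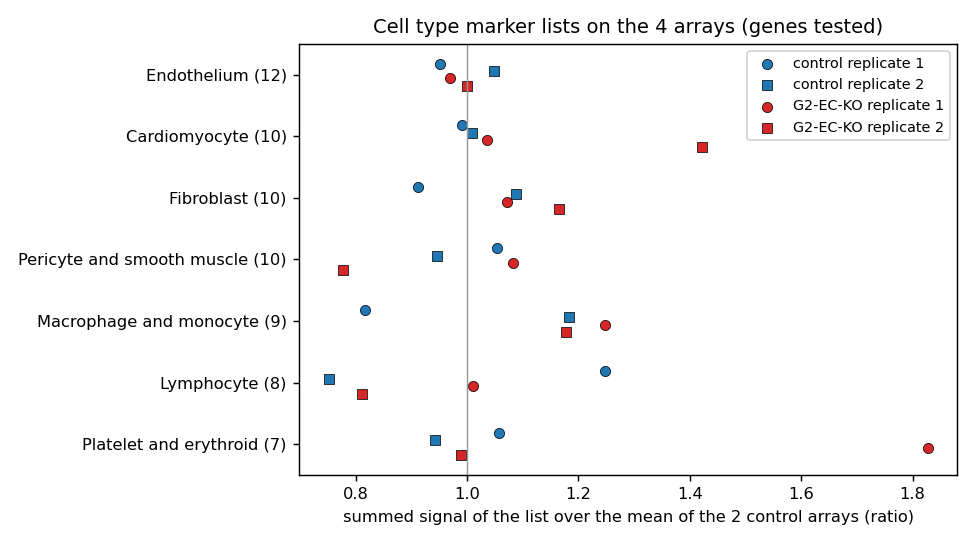
Summed signal of each cell type marker list on each array, divided by the mean of the 2 control arrays (x axis, ratio), with the number of genes tested in brackets, circles for replicate 1 and squares for replicate 2, blue for control and red for G2-EC-KO. G2-EC-KO replicate 2 is apart for cardiomyocyte markers, at a sum of 144 against 100.1 to 104.6 on the other arrays, and for pericyte and smooth muscle markers, at 257 against 313 to 358. G2-EC-KO replicate 1 is apart for platelet and erythroid markers, at 154 against 79.5 to 89.3. Most of that sum is the erythroid gene Hba-a1, at 7.18 in log2 there and 6.19 to 6.40 on the other arrays, so it says little of platelet genes.

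The marker lists around these genes had 0 genes past the adjusted threshold in limma, and at an unadjusted p under 0.05 there were 1 of 12 endothelial, 2 of 10 fibroblast and 1 of 9 macrophage and monocyte genes and 0 in the other lists, where 9.63% of all probes did. The change was above 0 for 10 of 10 cardiomyocyte, 9 of 9 macrophage and monocyte and 9 of 10 fibroblast markers. So it was for 6 of 7 platelet and erythroid, 6 of 12 endothelial, 2 of 10 pericyte and smooth muscle and 2 of 8 lymphocyte markers. Over all genes tested, 7916 of 13628 were above 0. The macrophage and monocyte median, 0.33, turned to -0.018 without control replicate 1. Leaving out 1 array turned the sign of the median in each other list but that of fibroblasts. The median was -0.032 for endothelial and 0.19 for fibroblast markers. Without overlap, 4 endothelial markers were lower and 1 higher, and 1 fibroblast marker was lower and 3 higher. Of all probes 22.6% were lower and 23.8% higher in this way. The marker of each list named for its probe signal was Flt1 for endothelium, with a log2 change of 0.0066 (SE 0.11), Actc1 for cardiomyocytes, at 0.12 (SE 0.13; 0.011 without G2-EC-KO replicate 1 and 0.23 without replicate 2), Gsn for fibroblasts, at 0.086 (SE 0.15), and Acta2 for pericytes and smooth muscle, at -0.15 (SE 0.24). For macrophages and monocytes it was Tyrobp, at 0.34 (SE 0.12), for lymphocytes Nkg7, at -0.21 (SE 0.37), and for platelets and erythroid cells Hba-a1, at 0.43 (SE 0.33). On G2-EC-KO replicate 2 alone, the median deviation from the control mean was 0.54 for cardiomyocyte and -0.32 for pericyte and smooth muscle markers, and on replicate 1 it was -0.029 and 0.12.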

How the data were processed

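RNA from 4 samples, carrying Cy3, was measured on 1-colour Agilent arrays of design 014868, per the labels' protocols and the file headers. Per the file headers, the deposited spot intensity was extracted with Feature Extraction 10.7.3.1 (10.5 in the submitters' processing notes), with background subtraction and spatial detrending done separately for every array and no step across arrays. The 4 arrays share 1 slide and 1 scan. A deposited value table, used as an alternative with a floor of 1, equals the median signal minus the median background plus 16 in all 45018 rows. It is linear and not centred, with medians of 169 and 166 in control and 149 and 138.5 in G2-EC-KO.

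Control spots and 87 to 101 outlier spots an array were dropped. Log2 processed signals, less the array's 75th percentile, were averaged over spots of a probe. A probe was tested when well above background on at least 2 of 4 arrays (26893 of 41174). On single arrays 63.8% to 66.5% of probes were well above background, with 0 saturated spots. Precision is limited by having 2 arrays a group. Accessions were matched to RefSeq symbols of GRCm38.p6, which named 26933 probes and left 14241 unnamed. Probe signals were ranked across genes only to choose which list genes to name, and such a rank is no measure of relative expression. limma 3.58.1 in R 4.3.3 (lmFit, eBayes, group alone, two-sided) had degrees of freedom of 2 (residual) and 2.58 (prior). It was also run on simulated data, with means and spread drawn from these arrays, and the outcome is not given here. Named were the 10 genes at every probe, Gata2, of each pathway list the 2 brightest genes and that with the smallest p, the brightest marker of each list and the 3 nearest profiles to the gene of widest range, of which 1 is not reported here. Apom, S1pr5, Lpar2 and Lpar3 were named after their values were seen. Members and lists were chosen with earlier results of these data known. Replicate numbers did not pair the samples by any label. Alternatives were normexp (offset 50, on median signals, not on the mean signals planned), quantile normalization, median centring, other filters, the deposited table, an intensity trend, the replicate block, the mean over probes of a gene and leaving out each array.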

Additional observations from a re-analysis of the deposited data

How the results depend on the processing

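None of the 15 probes of the 10 genes passed the adjusted threshold in limma under any alternative run, and the lowest adjusted p was 0.144. Of 190 values of these probes under alternatives, 179 kept their direction and 11 turned sign, 3 of them with all arrays kept. Those 3 were Sphk2, at -0.032 with normexp, -0.0094 with quantile normalization and -0.030 with the deposited table. Of other named genes, Acer2 turned to 0.0036 with median centring and Flt1 to -0.025 with quantile normalization.

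The count of all probes past the threshold, 1 as reported, was 2 with normexp, quantile normalization or median centring, and 0 without a filter, with the filter on all 4 arrays, with an intensity trend or with the replicate block. Leaving out 1 array moved it between 0 and 8, the latter without control replicate 1, and moved the count at an unadjusted p under 0.05, 2590, between 1335 without control replicate 1 and 5591 without G2-EC-KO replicate 1. It was 1446 without control replicate 2. Fits that leave out 1 array assume that the lone array of a group varies like the others. The replicate block gave 0 probes and changed no call among the 10 genes. Deviations of same-numbered arrays from their group means correlated at 0.044 over 26882 probes.

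Leaving out 1 array gave ranges that crossed 0 for S1pr1 (-0.16 to 0.015), S1pr2 probe A_52_P604613 (-0.20 to 0.12), S1pr3 probe A_51_P137523 (-0.98 to 0.056), Sphk2 (-0.10 to 0.12), Sgpl1 probe A_51_P391695 (-1.14 to 0.031) and Lpar1 (-0.089 to 0.0031). They also crossed 0 for Lpar5 (-0.23 to 0.45), Acer2 (-0.090 to 0.058), Abcg2 (-0.024 to 0.14), Plpp1 (-0.24 to 0.032), Gnai3 (-0.18 to 0.062), Rac1 (-0.090 to 0.039), Flt1 (-0.033 to 0.047), Gsn (-0.065 to 0.24), Acta2 (-0.44 to 0.15), Nkg7 (-0.59 to 0.18), Hba-a1 (-0.031 to 0.89) and Tifa (-0.83 to 0.067). The cause was not tested.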
